A study of Rattus norvegicus with 36 samples.

Results

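Of the 10 genes described here, Cps1, Otc, Ass1, Asl and Arg1 encode enzymes of the urea cycle. Oat, Got1, Sds, Glud1 and Hal encode enzymes of amino acid catabolism that move or release amino acid nitrogen. Every probe set whose gene symbol in the platform annotation was one of these names was taken, which gave 13 of the 31042 probe sets tested and 10 of 14217 gene symbols. Asl, Cps1 and Glud1 had 2 probe sets each, and no member probe set was shared with another symbol. All were measured in liver of male Harlan Sprague Dawley rats, 7 weeks old at the start, that received hexabromocyclododecane (HBCD, a brominated flame retardant) in corn oil by oral gavage on 5 consecutive days. The groups of 6 arrays each were corn oil without HBCD as vehicle, and HBCD at 0.06 mg/kg, at 0.641 mg/kg, at 6.41 mg/kg, at 64.1 mg/kg and at 641 mg/kg, which makes 36 arrays. Liver was taken 1 day after the last dose. Replicates are numbered in the labels, but whether each came from its own rat is not stated there. The p-values therefore describe array-to-array spread within a group, part of which may be technical. The RNA came from whole left lobe, in which fewer cells of a type and less RNA per cell cannot be told apart.

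The urea cycle turns toxic ammonia into urea, and in mammals its complete form runs in the liver, mainly in hepatocytes around the portal vein. Cps1 and Otc act in the mitochondrion and make citrulline from ammonia and ornithine. Ass1 and Asl act in the cytosol, joining citrulline to aspartate and releasing arginine, which Arg1 splits into urea and ornithine. Glud1 releases ammonia from glutamate, Got1 exchanges amino groups between aspartate and glutamate in the cytosol, Oat links ornithine to glutamate, and Sds and Hal remove the amino groups of serine and histidine. Transcripts of these enzymes are known to follow dietary protein, glucagon and glucocorticoids.

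At 641 mg/kg, Ass1, Oat and Got1 fell below vehicle, by 1.41-fold, 1.79-fold and 1.29-fold. The other 7 genes did not pass the test when each was read from its brightest probe set. Ass1 is the step at which nitrogen from aspartate enters the cycle, and Got1 and Oat work at the exchange of nitrogen between aspartate, ornithine and glutamate. Thus 3 of 10 genes were called lower and 0 higher at an adjusted p under 0.05 (limma, Benjamini-Hochberg over all probe sets), where 1.65% of all probe sets were called, 1.13% called higher and 0.512% called lower. The median log2 difference of the 10 genes was -0.203, with 8 values below 0, and that of all probe sets was -0.0073. At 0.06, 0.641, 6.41 and 64.1 mg/kg limma called 0 members, where 0%, 0%, 0% and 0.0419% of all probe sets were called. At those doses 0, 0, 0 and 1 of the 10 genes had an unadjusted p under 0.05, beside 1293, 1477, 1282 and 1843 of 31042 probe sets. At 641 mg/kg the counts were 8 of 10 genes and 3549 probe sets. These genes include Otc, which was higher than vehicle, and leave out Hal, whose value lay below 0. All of these comparisons share the vehicle arrays.

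Because Ass1, Oat and Got1 carry the difference, the windows around their transcription starts are shown. They hold 250 bases before to 50 after the start in RefSeq on assembly GRCr8, given in the 5′ to 3′ direction of the gene. The Ass1 window lies at chr3:35149480-35149779 on the plus strand, the Oat window at chr1:196797705-196798004 on the minus strand and the Got1 window at chr1:252329822-252330121 on the minus strand. Capitals mark the TATA box, whose letters are TATAAA, the CCAAT box, and the GC box with the letters GGGCGG, each on either strand.
Ass1: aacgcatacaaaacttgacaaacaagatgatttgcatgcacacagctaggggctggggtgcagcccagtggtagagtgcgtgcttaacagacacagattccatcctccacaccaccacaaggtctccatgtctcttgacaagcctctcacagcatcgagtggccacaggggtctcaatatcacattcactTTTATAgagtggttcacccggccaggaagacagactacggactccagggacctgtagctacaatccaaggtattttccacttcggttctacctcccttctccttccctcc
Oat: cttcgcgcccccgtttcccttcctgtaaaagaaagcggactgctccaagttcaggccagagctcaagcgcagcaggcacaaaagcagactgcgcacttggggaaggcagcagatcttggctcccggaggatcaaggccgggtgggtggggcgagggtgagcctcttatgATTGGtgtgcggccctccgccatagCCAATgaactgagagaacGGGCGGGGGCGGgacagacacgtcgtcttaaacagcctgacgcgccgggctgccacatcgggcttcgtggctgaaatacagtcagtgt
Got1: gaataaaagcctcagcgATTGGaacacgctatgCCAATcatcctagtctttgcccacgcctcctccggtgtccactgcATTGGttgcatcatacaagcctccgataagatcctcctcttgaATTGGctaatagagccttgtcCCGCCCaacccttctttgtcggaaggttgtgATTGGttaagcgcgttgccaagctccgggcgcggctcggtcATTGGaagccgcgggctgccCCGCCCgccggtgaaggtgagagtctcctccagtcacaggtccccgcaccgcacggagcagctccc
The Ass1 window held 1 TATA box, on the reverse strand with its first base 60 bases before the start, and no CCAAT or GC box. The Oat window held 2 CCAAT boxes and 2 adjoining GC boxes, and the Got1 window 6 CCAAT boxes and 2 GC boxes. The start used lies 4965 bases inside the listed span of Ass1 and 7751 bases inside that of Got1, while that of Oat is the end of its span. Among 33469 promoter windows of the same length, TATAAA was found in 14.2%, CCAAT in 37.5% and GGGCGG in 33.1%.

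Windows were matched for 7 of the 10 genes, Ass1, Oat, Got1, Asl, Cps1, Glud1 and Otc. The cyclic AMP response element TGACGTCA was in 0 of these 7 and in 1.83% of all windows. The glucocorticoid receptor half-site AGAACA was in 0 of 7 and in 20.7%. The antioxidant response element core TGACNNNGC was in Got1 alone and in 12.1%, and its last base there is the first base of a CCAAT box on the reverse strand. The windows ranged in GC content from 39.3% for Cps1 to 78.0% for Glud1. A match is a run of letters and not a measured binding site, and the arrays do not report which start site was used.

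**Figure D1:**
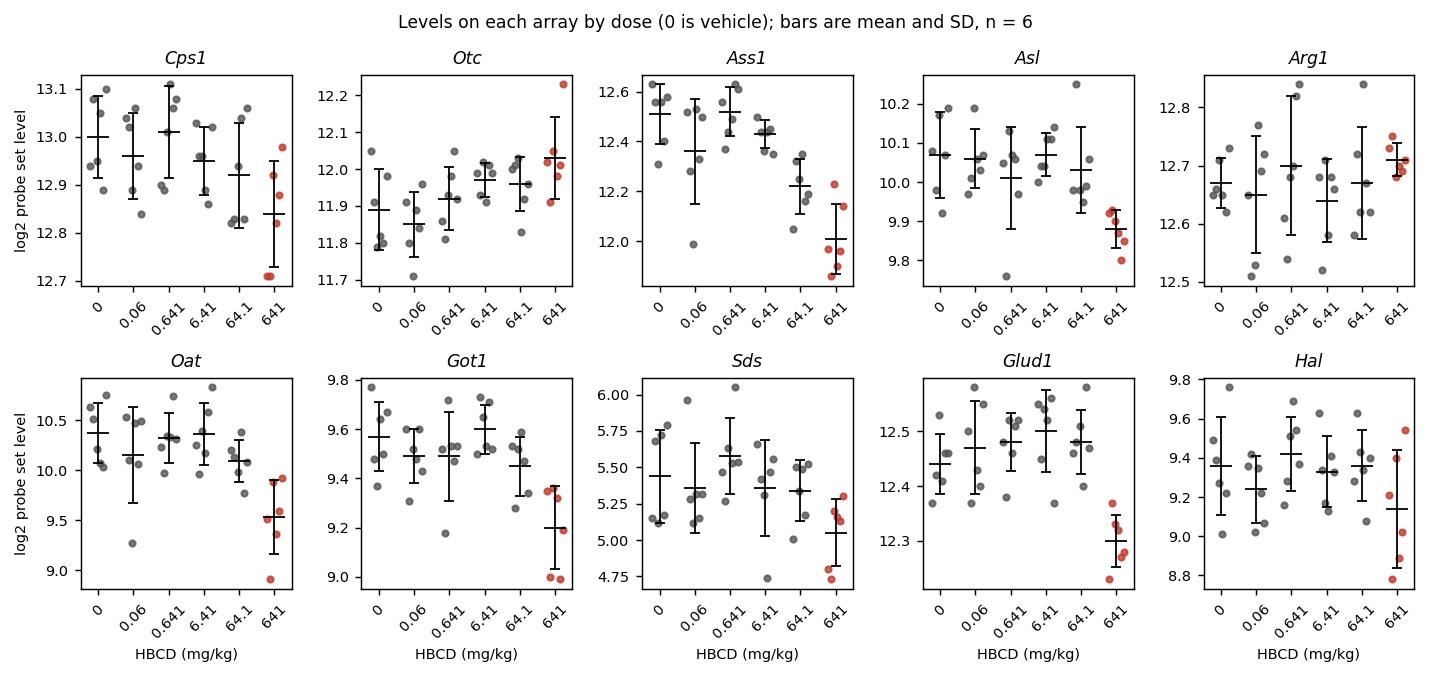
Log2 level of each member gene by its highest probe set in the 6 groups, from vehicle to 641 mg/kg, with each point 1 array and bars showing the mean and SD of 6 arrays; each panel has its own log2 axis, which does not start at 0. For Ass1, Oat and Got1 all 6 arrays at 641 mg/kg lie below all 6 vehicle arrays, while Arg1 and Otc at 641 mg/kg overlap vehicle.

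The first step of the cycle is made by Cps1, which commits ammonia to carbamoyl phosphate. Its brighter probe set, 1384334_at, ran from 12.71 over a median of 12.85 to 12.98 on the log2 scale at 641 mg/kg, against 12.89, 13.00 and 13.10 in vehicle. The ranges overlapped, and the difference of -0.17 (95% CI -0.284 to -0.0476) did not pass the test (adjusted p = 0.18). The other Cps1 probe set, 1370151_at, was more variable, with a difference of -0.24 (adjusted p = 0.275). Across arrays of a group the probe sets of Cps1 moved together with a Pearson r of 0.59.

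Otc, which joins carbamoyl phosphate to ornithine, was 1 of 2 members whose value at 641 mg/kg lay above vehicle. It ran from 11.91 over 12.02 to 12.23 at 641 mg/kg, against 11.79, 11.87 and 12.05 in vehicle. The difference was 0.14 (95% CI 0.0288 to 0.252; adjusted p = 0.261), with overlapping ranges. Its group means from vehicle through 0.06, 0.641, 6.41 and 64.1 to 641 mg/kg were 11.89, 11.85, 11.92, 11.97, 11.96 and 12.03, and the slope per dose rank was 0.031 (adjusted p = 0.105).

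Ass1, the enzyme that builds argininosuccinate, had the smallest p of the members. Its 6 values at 641 mg/kg were 11.97, 11.86, 12.23, 11.90, 11.96 and 12.14, against 12.63, 12.56, 12.31, 12.56, 12.40 and 12.58 in vehicle. No array at 641 mg/kg reached the lowest vehicle array. Ass1 averaged 12.01 ± 0.14 at 641 mg/kg and 12.51 ± 0.12 in vehicle (SD, n = 6 each), a log2 difference of -0.50 that makes it 1.41-fold lower (95% CI 1.27 to 1.57; limma adjusted p = 1.07e-04).

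Ass1 was also the member with the lowest p at 64.1 mg/kg, where 0.0419% of all probe sets were called. It averaged 12.22 ± 0.11 at 64.1 mg/kg (SD, n = 6), and the difference of -0.28 from vehicle had an unadjusted p of 7.26e-04 and an adjusted p of 0.394, so it is not a call. The ranges overlapped, from 12.05 to 12.35 at 64.1 mg/kg and from 12.31 to 12.63 in vehicle. Ordered by mean, Ass1 was lowest at 641 mg/kg, then 64.1, 0.06, 6.41, vehicle and 0.641 mg/kg. Of these neighbours, only 641 and 64.1 mg/kg lay farther apart than the larger SD, by 0.211, and their array ranges overlapped.

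Asl cleaves argininosuccinate to arginine and fumarate. By 1367754_s_at it ran from 9.80 over 9.88 to 9.93 at 641 mg/kg, against 9.92, 10.08 and 10.19 in vehicle, a near separation in which the highest array at 641 mg/kg passed only the lowest vehicle array. The difference of -0.19 (95% CI -0.306 to -0.0725) had an adjusted p of 0.0944. The second probe set, 1368916_at, differed by -0.19 as well (adjusted p = 0.157), and the probe sets moved together within groups (r = 0.87). The platform annotation names 1367754_s_at as Asl, but the accession it lists belongs to Hnrnpab in the RefSeq gene table, so the identity of this probe set is uncertain and 1368916_at is given beside it.

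Arg1, the last step, gave no call at any dose. It ran from 12.68 over 12.70 to 12.75 at 641 mg/kg, against 12.62, 12.66 and 12.73 in vehicle. The difference was 0.038 (adjusted p = 0.863), and its 95% CI of -0.0702 to 0.146 gives the range of changes these arrays allow. Its group means lay between 12.64 and 12.71 over all 6 groups.

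Among the members of amino acid catabolism, Oat showed the largest difference. Oat, ornithine aminotransferase, had values of 9.51, 8.91, 9.88, 9.36, 9.59 and 9.92 at 641 mg/kg, against 10.63, 10.51, 10.21, 10.07, 10.03 and 10.75 in vehicle. All arrays at 641 mg/kg lay below all vehicle arrays, although replicate 2 at 641 mg/kg was lower than its group. Oat averaged 9.53 ± 0.37 at 641 mg/kg and 10.37 ± 0.30 in vehicle (SD, n = 6 each), 1.79-fold lower (95% CI 1.39 to 2.30; adjusted p = 0.00727). Without replicate 2 of the 641 mg/kg group the log2 difference was -0.71 (adjusted p = 0.0329).

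The order of the Oat means was 641, 64.1, 0.06, 0.641, 6.41 mg/kg and vehicle. The step from 641 to 64.1 mg/kg, 0.561, was larger than the larger SD of both groups, and the other steps were not. The array ranges of 641 and 64.1 mg/kg overlapped, and that pair was not called (log2 difference -0.56, adjusted p = 0.275).

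Got1, cytosolic aspartate aminotransferase, had values of 9.35, 9.00, 9.36, 9.32, 8.99 and 9.19 at 641 mg/kg, against 9.77, 9.48, 9.37, 9.64, 9.50 and 9.67 in vehicle. The groups did not overlap, but the highest array at 641 mg/kg and the lowest vehicle array nearly met. Got1 averaged 9.20 ± 0.17 at 641 mg/kg and 9.57 ± 0.14 in vehicle (SD, n = 6 each), 1.29-fold lower (95% CI 1.16 to 1.45; limma adjusted p = 0.00773). When only the arrays at 641 mg/kg and vehicle were fitted, its adjusted p was 0.053.

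Glud1, glutamate dehydrogenase, gave a small shift with little spread. By 1387878_at it averaged 12.30 ± 0.047 at 641 mg/kg and 12.44 ± 0.055 in vehicle (SD, n = 6 each), a difference of -0.14 that was not called (limma adjusted p = 0.116). By 1370200_at it averaged 11.61 ± 0.071 at 641 mg/kg and 11.80 ± 0.078 in vehicle (SD, n = 6 each), a difference of -0.19 that was called (limma adjusted p = 0.034). In both probe sets all arrays at 641 mg/kg lay below all vehicle arrays, but the groups nearly met. The highest array at 641 mg/kg and the lowest vehicle array both read 12.37 after rounding for 1387878_at. For 1370200_at they were 11.70 and 11.72. The call of 1370200_at was lost with arrays centred on their medians (adjusted p = 0.0621) and with only the 641 mg/kg and vehicle arrays in the fit (adjusted p = 0.155). It was also lost without vehicle replicate 2, 3, 5 or 6, or without 641 mg/kg replicate 3, 4 or 6 (adjusted p up to 0.11).

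Sds, serine dehydratase, and Hal, histidine ammonia-lyase, were the most variable members beside Oat. Sds ran from 4.73 over 5.14 to 5.30 at 641 mg/kg, against 5.12, 5.42 and 5.79 in vehicle, with a difference of -0.39 (95% CI -0.696 to -0.0784; adjusted p = 0.263). The array medians were 4.829 to 4.899, and the files hold no detection calls that would separate signal from background. Hal ran from 8.78 over 9.12 to 9.54 at 641 mg/kg, against 9.01, 9.33 and 9.76 in vehicle, with a difference of -0.22 (95% CI -0.46 to 0.0252; adjusted p = 0.508). The ranges of both groups overlapped between 5.12 and 5.30 for Sds and between 9.01 and 9.54 for Hal.

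Counting arrays alone, 4 member genes (Ass1, Oat, Got1 and both probe sets of Glud1) had every array at 641 mg/kg below every vehicle array, and 0 had every array above. Over all probe sets the shares were 0.654% below and 1.06% above. At the lower doses no member separated from vehicle in either direction. Over all probe sets, the share with all arrays below vehicle was 0.0966% at 0.06 mg/kg, 0.0741% at 0.641 mg/kg, 0.0999% at 6.41 mg/kg and 0.168% at 64.1 mg/kg. The share above vehicle was 0.0387% at 0.06 mg/kg, 0.0773% at 0.641 mg/kg, 0.0805% at 6.41 mg/kg and 0.184% at 64.1 mg/kg.

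The groups at 6.41, 0.641 and 0.06 mg/kg, in which 0% of probe sets were called against vehicle, gave a second set of arrays to hold 641 mg/kg against. This comparison shares the 641 mg/kg arrays with the one against vehicle, so it is not independent of it. Against the mean of the lower doses, 4 of 10 genes were called, all lower, where 1.97% of all probe sets were called and 0.786% were called lower. Ass1 differed by -0.42 (adjusted p = 3.49e-05), Oat by -0.75 (adjusted p = 0.00203), Got1 by -0.33 (adjusted p = 0.00248) and Glud1 by -0.18 for 1387878_at and -0.21 for 1370200_at (adjusted p = 0.00243 and 0.00175). Against 64.1 mg/kg alone no member was called, where 0.242% of all probe sets were, and 5 of 10 genes had an unadjusted p under 0.05, as did 2839 of 31042 probe sets.

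**Figure D2:**
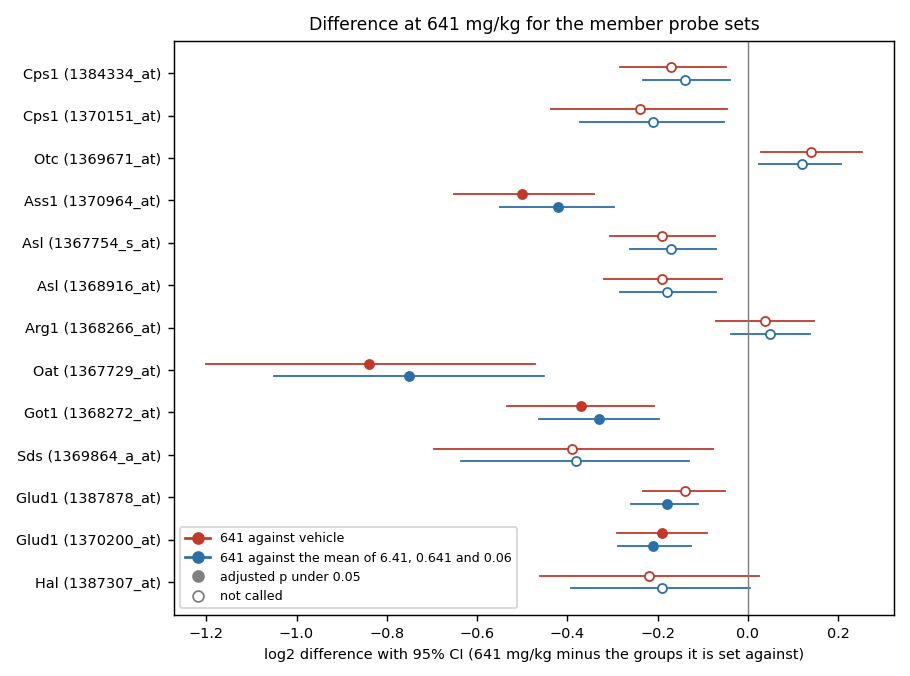
Log2 difference of each of the 13 member probe sets at 641 mg/kg, with the 95% CI of the limma fit, from vehicle and from the mean of 6.41, 0.641 and 0.06 mg/kg. Ass1, Oat and Got1 lie below 0 in both comparisons, and the intervals of Arg1 and Hal span 0.

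Across all 6 groups taken as dose ranks, Ass1 fell by 0.085 per rank (adjusted p = 8.15e-05), Oat by 0.12 (adjusted p = 0.027) and Got1 by 0.053 (adjusted p = 0.037). That is 3 of 10 genes, all lower, where 1.35% of all probe sets were called and 0.445% were called lower. The call for Got1 was lost when any of 10 single arrays was left out (adjusted p up to 0.0984): vehicle replicates 1, 4 and 6, 0.06 mg/kg replicates 1 and 5, 64.1 mg/kg replicates 2 and 6, and 641 mg/kg replicates 2, 5 and 6. That for Oat was lost without vehicle replicate 1, 2 or 6 or 641 mg/kg replicate 2 or 4 (up to 0.0777). The moderated F test over all groups called the same 3 genes, at adjusted p = 2.09e-04 for Ass1, 0.0406 for Oat and 0.0398 for Got1, where 0.773% of all probe sets were called. It also called the second probe set of Glud1, 1370200_at (adjusted p = 0.0437). Of 43 alternatives, Ass1 kept its F test call in 43, Got1 in 32 and Oat in 28. Got1 lost it without vehicle replicate 4 or 6, 0.641 mg/kg replicate 5 or 6, 6.41 mg/kg replicate 2, 3 or 5, or 641 mg/kg replicate 2, 4, 5 or 6 (adjusted p up to 0.202). Oat lost it with variance trend and robust moderation, and without vehicle replicate 1, 2 or 6, 0.06 mg/kg replicate 5, 0.641 mg/kg replicate 3, 4, 5 or 6, 6.41 mg/kg replicate 3 or 5, or 641 mg/kg replicate 1, 2, 4 or 5 (adjusted p up to 0.225).

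The members differed in how far arrays of a group spread. The pooled SD within groups was 0.332 for Oat, larger than in 97.7% of all probe sets, and 0.28 for Sds and 0.217 for Hal. It was 0.0636 for Glud1 (1387878_at), larger than in only 1.5%, and 0.0834 for Arg1 and 0.0876 for Otc. The median over all probe sets was 0.142, close to 0.14 for Got1 and 0.133 for Ass1. The difference called for Glud1 (1370200_at) is smaller than the SD within groups of Oat.

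Part of that spread was shared. After the group means were removed, Oat moved with Otc (r = 0.73, rho = 0.73) and with Ass1 (r = 0.71, rho = 0.62) over the 36 arrays. Without the 2 arrays farthest from the median, r was 0.66 for Oat with Otc and 0.61 for Ass1 with Oat. Over the 45 pairs of member genes the median r was 0.28, from -0.29 for Glud1 with Oat to 0.73. Asl and Glud1 stood apart from the Cps1, Otc, Ass1, Oat, Sds and Hal block, with r of -0.09 for Asl with Ass1 and -0.14 for Glud1 with Ass1. Leaving out the 2 arrays farthest from the median of the first gene, r was -0.34 for Asl with Ass1 and 0.13 for Ass1 with Glud1. By 1368916_at, r of Asl with Ass1 was 0.03 over all arrays. Got1 was also weakly tied to the block, with r from 0.14 for Cps1 to 0.28 for Otc. Arg1 lay nearer to it, with r of 0.48 for Ass1 and 0.50 for Oat. These correlations are descriptions over arrays normalized together.

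Single arrays were also ranked within their group, from the same values as the correlations above and so not as further support. In the 641 mg/kg group, replicate 2 held the lowest value for 5 genes, Ass1, Hal, Oat, Otc and Sds. In the 0.06 mg/kg group, replicate 3 held the lowest value for the same 5 names, with Oat at 9.27 and Ass1 at 11.99. In the 0.641 mg/kg group, replicate 2 was lowest for 9 of 10 genes, Hal being the other. These 9 include Asl and Glud1 and leave out a gene of the block, so this array does not repeat the pattern of the correlations. In vehicle, replicate 6 was highest for 6 genes.

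**Figure D3:**
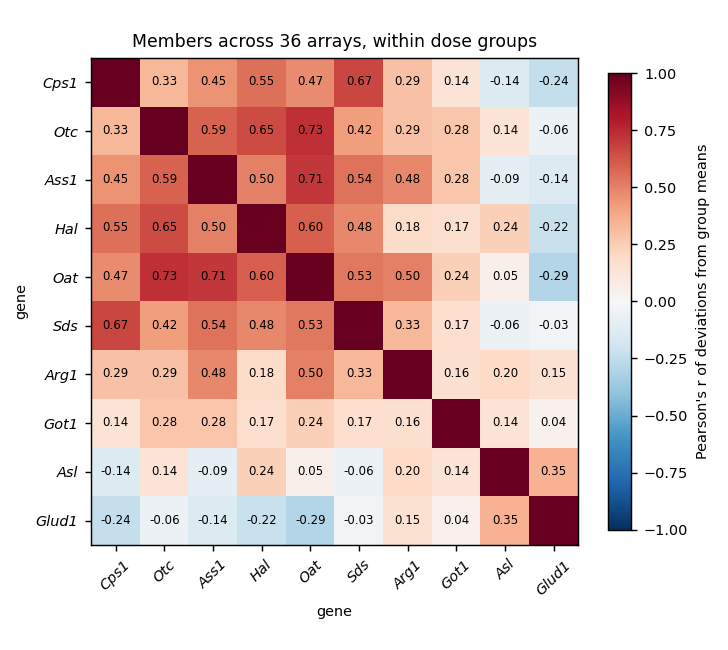
Pearson's r between member genes, by their highest probe sets, of the deviations of 36 arrays from their group means, with colour from -1 to 1. Cps1, Otc, Ass1, Hal, Oat and Sds form a block of positive values up to 0.73, while Glud1 runs from -0.29 to 0.35 against the others.

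Of all 14217 symbols, those whose profile over the 36 arrays was most like Ass1 were Ang (r = 0.89, rho = 0.83), Gnmt (r = 0.85, rho = 0.81) and Oat (r = 0.84, rho = 0.77). Ang encodes angiogenin, a ribonuclease, and Gnmt a glycine methyltransferase that is abundant in liver. For Oat they were Ass1, Ang (r = 0.80, rho = 0.75) and Synrg (r = 0.78, rho = 0.65). For Got1 they were Slc6a6, the taurine transporter (r = 0.73, rho = 0.56), Gnmt (r = 0.73, rho = 0.65) and Hao2 (r = 0.69, rho = 0.57). With group means removed, r was 0.77 for Ass1 with Ang and 0.55 for Ass1 with Gnmt. For Oat it was 0.71 with Ass1, 0.63 with Ang and 0.60 with Synrg. For Got1 it was 0.47 with Slc6a6, 0.37 with Gnmt and 0.30 with Hao2. Each of these lay below the value over all arrays.

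Other genes of urea and ammonia handling, such as the cofactor enzyme Nags, carriers and glutamine synthesis, had 11 of 14 measured. At 641 mg/kg against vehicle 0 were called higher and 1 lower, with all 11 values below 0 and a median of -0.119. The called gene was Glul, glutamine synthetase, which takes up ammonia in hepatocytes around the central vein. Glul averaged 10.51 ± 0.25 at 641 mg/kg and 10.91 ± 0.26 in vehicle (SD, n = 6 each), 1.32-fold lower (95% CI 1.14 to 1.53; limma adjusted p = 0.038). The call was lost with only the arrays of both groups in the fit (adjusted p = 0.193), and without vehicle replicate 2, 3, 4, 5 or 6 or 641 mg/kg replicate 1, 2, 4 or 6 (up to 0.135). Nags, which makes the activator of Cps1, differed by -0.11 (adjusted p = 0.542), and it was chosen after its values were seen.

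Among 52 of 57 other amino acid catabolism genes measured, 2 were called higher and 3 lower at 641 mg/kg, with a median of 0.032. Prodh, proline dehydrogenase, averaged 8.49 ± 0.11 at 641 mg/kg and 9.05 ± 0.17 in vehicle (SD, n = 6 each), 1.48-fold lower (limma adjusted p = 3.08e-04). Kynu, kynureninase of tryptophan breakdown, was 1.26-fold lower (adjusted p = 0.00656), as was Cth, which makes cysteine from cystathionine (adjusted p = 0.0089). With only both groups in the fit, Cth had an adjusted p of 0.098. Afmid and Hibch, of tryptophan and valine breakdown, were each 1.25-fold higher (adjusted p = 0.0378 and 0.0368). Afmid lost the call without vehicle replicate 2, 3, 4 or 5 or 641 mg/kg replicate 1, 3, 4, 5 or 6 (adjusted p up to 0.106). Hibch lost it without vehicle replicate 2, 4 or 5 or 641 mg/kg replicate 1, 2, 3 or 5 (adjusted p up to 0.111). It was also lost for Hibch with only both groups in the fit and with the p-values of the 5 doses adjusted together (limma adjusted p up to 0.16).

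Known hormone-regulated genes were followed because members share that regulation as background. Of 13 targets of glucagon, cyclic AMP and glucocorticoids other than the members, 12 were measured and limma called 0 at 641 mg/kg (5 at an unadjusted p under 0.05), with 11 values below 0 and a median of -0.266. Igfbp1 had the smallest p, with a log2 difference of -1.04 (adjusted p = 0.133). Against the mean of the lower doses Igfbp1, a binding protein of insulin-like growth factors, was called, 2.43-fold lower at 641 mg/kg (log2 difference -1.28, limma adjusted p = 0.00624). It was called in every alternative of that comparison. By slope it fell by 0.21 per dose rank (limma adjusted p = 0.049). That call was lost with arrays centred on their medians, with variance trend and robust moderation, and in most fits with a single array left out (adjusted p up to 0.121). Pck1, of glucose synthesis and chosen after its values were seen, differed by -0.41 (adjusted p = 0.152). Of 17 regulators, 0 were called higher and 1 lower, and this was Glul, an enzyme which the list also holds.

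Since urea cycle enzymes are known mainly from hepatocytes around the portal vein and Oat from those around the central vein, genes of both zones were read beside them. Of 13 of 15 periportal genes measured, 0 were called higher and 2 lower at 641 mg/kg against vehicle, with 9 values below 0, 4 above and a median of -0.0861. These were Fbp1, of glucose synthesis (1.16-fold lower, adjusted p = 0.0399), and Apoa4, an apolipoprotein (1.31-fold lower, adjusted p = 0.0487), whose call was lost in 29 of 45 alternatives, most of them single arrays left out. Fbp1 lost its call with arrays centred on their medians (adjusted p = 0.07), and without vehicle replicate 3, 4, 5 or 6 or 641 mg/kg replicate 4, 5 or 6 (adjusted p up to 0.134). It was also lost for Fbp1 with only both groups in the fit and with the 5 doses adjusted together (limma adjusted p up to 0.17). Of 14 of 15 pericentral genes measured, 6 had values below 0 and 8 above, with a median of 0.0246, and 3 were called lower, Cyp1a2 (1.38-fold, adjusted p = 6.42e-07), Gulo (1.26-fold, adjusted p = 4.79e-04) and Glul. In both zones every gene called at 641 mg/kg against vehicle was lower. The split between zones depended on the comparison. For 641 mg/kg against the mean of the lower doses, 11 of 14 pericentral genes lay below 0 (median -0.141), with 4 called lower. Of 13 periportal genes, 8 lay below 0 (median -0.0753), with 1 called lower, where 0.786% of all probe sets were called lower. Against 64.1 mg/kg, 13 of 14 pericentral and 10 of 13 periportal genes lay below 0. By slope, periportal Ctsc, a lysosomal protease chosen after its values were seen, was called higher (0.0378 per dose rank, adjusted p = 0.0153), and Apoa4 was called lower.

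**Figure D4:**
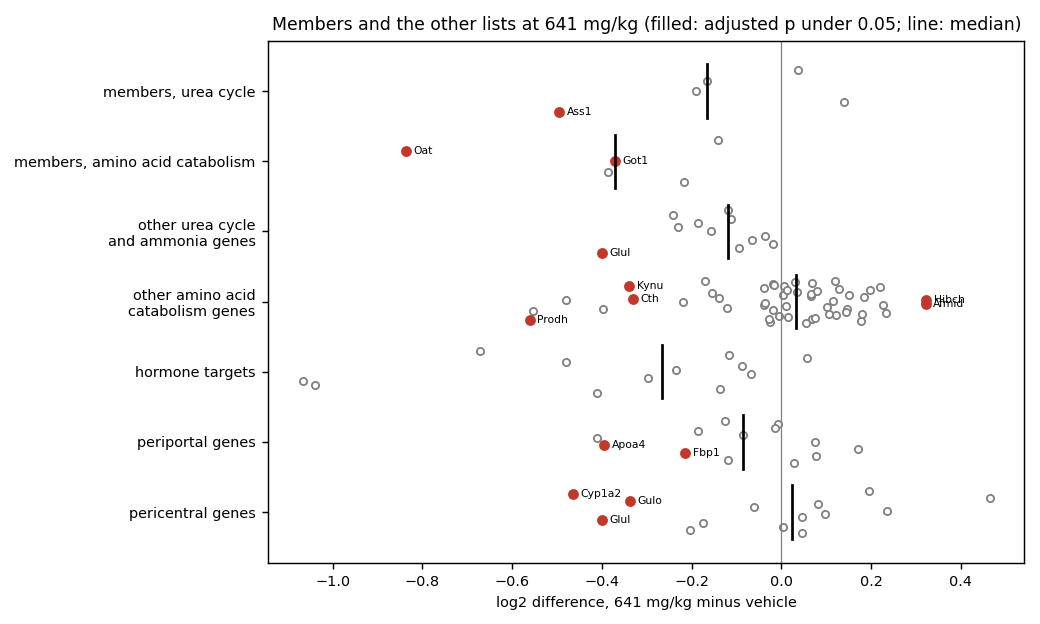
Log2 difference between 641 mg/kg and vehicle for the members and for lists of related genes, 1 point per gene by its highest probe set, filled where the adjusted p is under 0.05, with a line at each median. Ass1, Oat and Got1 are the filled members, and the filled points of the other amino acid catabolism genes lie on both sides of 0.

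Of 50 markers of cell types other than hepatocytes, 0 were called higher and 1 lower at 641 mg/kg, with a median of -0.0614, and none of the 7 hepatocyte markers was called. The lower one was Cd8a, a lymphocyte gene, which averaged 4.45 ± 0.25 at 641 mg/kg and 5.11 ± 0.33 in vehicle (SD, n = 6 each; limma adjusted p = 0.0176). Its call was lost without vehicle replicate 2 (0.0675) or 641 mg/kg replicate 2 (0.0673). Averaging the probe sets of a gene, or adjusting the 5 doses together, also ended the Cd8a call (limma adjusted p up to 0.0788). The mean log2 level of the 7 lymphocyte markers measured ran from 4.24 to 4.66 over arrays at 641 mg/kg and from 4.43 to 4.70 in vehicle, below the array medians. Of the 7 hepatocyte markers, 5 lay below 0 at 641 mg/kg against vehicle (median -0.083). An unadjusted p under 0.05 was found for 3 of them, and for 3549 of 31042 probe sets. Serpina1 among them was called in 3 of 45 alternatives (lowest limma adjusted p 0.00552). Against the mean of the lower doses 1 hepatocyte marker was called lower, where 0.786% of all probe sets were. The part of cell composition in the results was not tested. The difference between 3-prime and 5-prime Gapdh control probe sets, which grows with RNA decay, had a median of -0.04 at 641 mg/kg and 0.01 in vehicle. For actin the median was 1.12 at 641 mg/kg and 1.20 in vehicle. The highest single values of all groups were at 0.641 mg/kg, 0.19 for Gapdh and 1.58 for actin, against 0.05 and 1.38 in vehicle.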

How the data were processed

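Liver RNA on 36 arrays, 6 per group by the sample labels, was deposited as log2 expression values per probe set. Per the submitters' processing notes, the authors used RMA and affy to make these log2 values, and versions and the genome build are not given in the sources used here. RMA subtracts a modelled background, puts the arrays on 1 distribution and combines each probe set's probes robustly, which compresses differences of dim probe sets. Values ran from 1.526 to 14.588 and were used without further normalization. Of 31099 probe sets, 57 controls were left out. Symbols came from the platform annotation, brought up to date through RefSeq (20758 by gene ID, 2 by accession, 66 kept), and 436 probe sets with several symbols named no gene. A gene was represented by its probe set with the highest mean.

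limma 3.58.1 in R 4.3.3 was fitted with group as the factor over all arrays, with two-sided tests, p-values adjusted by Benjamini-Hochberg separately for 9 comparisons, and calls at an adjusted p under 0.05. R/maanova, which the submitters' design text gives with a 5% false discovery rate, was not used here. The fit was tested on simulated data. Members and lists were chosen with earlier results of these data known. Named genes were all members, list genes called at 641 mg/kg against vehicle (or the one with the smallest p), and the 3 symbols most like each called member. Arrays of a group correlated at 0.991 to 0.997, and 0 pairs were identical. The number of arrays limits the precision. Alternatives are given in the closing section.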

Additional observations from a re-analysis of the deposited data

Results flagged for a closer look

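In 4 of 78 combinations of member probe set and group, 1 array lay far from the other 5 by Dixon's criterion, where chance flags about 1 in 20, or 3.9. They were Asl (1367754_s_at) at 64.1 mg/kg replicate 2 with 10.25, next to 10.06, and Asl (1368916_at) at 0.641 mg/kg replicate 2 with 9.60, next to 9.89. The others were Oat at 0.06 mg/kg replicate 3 with 9.27, next to 10.06, and Sds at 0.06 mg/kg replicate 1 with 5.96, next to 5.32.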

How the results depend on the processing

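Against vehicle at 641 mg/kg, Ass1 and Oat were called in all 45 alternatives (adjusted p up to 0.00462 and 0.033) and Got1 in 44. With probe sets under a group mean of 6 left out, 5 members were called (Asl, Ass1, Glud1, Got1 and Oat), where 6.78% of the 11258 probe sets left were called. Asl was read from 1367754_s_at, the probe set of uncertain identity. Its other probe set, 1368916_at, was called in none of its 44 alternatives at 641 mg/kg against vehicle (lowest limma adjusted p 0.0594). For 641 against 64.1 mg/kg the filter gave 1 called member (Glud1), where 0.879% of probe sets were called. Variance trend and robust moderation (0.274% of probe sets called) or the mean of a gene's probe sets also called Glud1 there. Leaving out each array gave 3 to 4 called members at 641 mg/kg against vehicle (1.08% to 1.77% of probe sets called). It gave 4 to 5 against the lower doses (1.29% to 2.08%), 1 to 3 by slope (1.02% to 1.38%) and 1 to 4 by the F test (0.496% to 0.831%). The count was 1 by slope without vehicle replicate 6 or 641 mg/kg replicate 2. Without vehicle replicate 1, Oat and Got1 lost their slope calls and Otc was called, higher. Otc was called higher by slope in 3 of 43 alternatives, these being that one, the filter on dim probe sets and variance trend with robust moderation (lowest adjusted p 0.0308). The count was 1 by the F test without vehicle replicate 6, 0.641 mg/kg replicates 5 or 6, 6.41 mg/kg replicates 3 or 5, or 641 mg/kg replicates 2, 4 or 5. The cause was not tested. No member reversed its direction at 641 mg/kg under any alternative run. Replicate numbers did not pair arrays (correlation of deviations -0.252 to 0.321, 14 of 90 over 0.1, and 6 arrays matched their own number best). The replicate block called 3 members at 641 mg/kg against vehicle, 4 against the lower doses, 3 by slope and 3 by the F test, where 1.61%, 1.88%, 1.22% and 0.744% of probe sets were called. It ended the calls of Fbp1 and Afmid at 641 mg/kg against vehicle (adjusted p = 0.0547 and 0.0524). Adjusting the p-values of the 5 doses together kept the calls of Ass1, Oat and Got1 at that dose. This joint adjustment ended those of Glud1 (1370200_at), Glul, Afmid, Hibch, Fbp1, Apoa4 and Cd8a. The other probe sets of Asl, Cps1 and Glud1 were tried after seeing the data. Sds had no group mean of 6 and was not in the fit without dim probe sets.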
